A study of Mus musculus with 2 samples.

Results

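Mitochondrial ribosomal protein genes were taken as every gene whose symbol is Mrps or Mrpl followed by a number and at most 1 further letter, and which held at least 50 unique molecular identifiers (UMIs, tags that count each captured transcript once) over both libraries of the series. All 78 symbols of this form met that minimum, among 56748 genes in the matrices and 21476 genes with at least 50 UMIs. By symbol, 29 belong to the small subunit (Mrps) and 49 to the large subunit (Mrpl). Mrpl53 held the fewest UMIs, 202, and the next lowest, Mrps2, held 8725, so a higher minimum of 200 UMIs would have kept the same genes.

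The study profiled lineage-depleted bone marrow of C57BL/6 mice by droplet-based sequencing of transcript 3′ ends. It asks how Nat10, the enzyme that writes N4-acetylcytidine (ac4C) on RNA, bears on how haematopoietic stem cells are kept and how they differentiate. One group was wild type (WT) and the other carried a conditional knockout (cKO) of Nat10, with 1 library per genotype. The design text speaks of 5 independent WT or cKO mice, but no label assigns a cell to a mouse, and the Cre line, the deleted part of Nat10 and the ages are not given in the sources used here. No difference between the genotypes therefore has a replicate check, and all intervals below are 95% intervals for counting error only.

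Mitochondria have their own ribosome, built from 2 rRNAs transcribed inside the organelle and from proteins that are all encoded in the nucleus, made in the cytosol and imported. It translates the 13 respiratory chain proteins of the mitochondrial genome. Its small subunit reads the messenger RNA and its large subunit joins amino acids and feeds the product into the inner membrane. Erythroid cells, which build haem partly inside mitochondria, are known to depend on mitochondrial translation, while quiescent stem cells are commonly described as relying little on respiration.

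After filtering, 11945 WT cells with 262788089 UMIs and 10695 cKO cells with 253860830 UMIs were used, with medians of 18315 and 21450 UMIs per cell. The libraries shared 67 barcodes, 40 of them among barcodes that passed the filters. Clusters were named from marker genes after both libraries were clustered together with the 78 genes left out of the variable genes. Described are 10 classes that had 100 cells or more in each library, and their names end in "-like" because they rest on RNA alone. Levels are UMIs scaled to a common total (CPM), given for the WT library first and the cKO library second; since a 3′ tag counts a transcript once, they were not scaled by length. Nat10 stood at 47.0 (WT) and 38.7 CPM (cKO), with a log2 ratio of −0.28 (−0.32 to −0.24), and below 0 in all 10 classes, from −1.01 to −0.30. Tags outside the deleted part would check nothing, so this does not test the knockout.

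Across all kept cells, mitochondrial ribosomal protein genes were higher in the cKO library almost without exception, and the subunits moved alike. Summed over the 78 genes, the level was 6793 (WT) and 8858 CPM (cKO), a log2 ratio of 0.38 (0.38 to 0.39). The small subunit genes went from 2357 to 3026 CPM (log2 ratio 0.36) and the large subunit genes from 4437 to 5832 CPM (0.39). Of the 78 genes, 77 had a ratio above 0, against 38.7% of the 21256 genes tested, that is, with at least 50 UMIs in these cells. A log2 ratio of at least 0.3 was reached by 57 of the 78, 21 small and 36 large subunit genes, against 14.8% of all genes tested. None had a ratio of −0.3 or lower, as 29.2% of all genes did. Their median ratio was 0.38 beside −0.11 for all genes tested, and scaling by the trimmed mean of M-values would add 0.10 to every ratio. With the cKO clusters reweighted to the WT mix of clusters, 36 of the 78 genes passed 0.3. The share of all genes under that mix is not given.

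**Figure D1:**
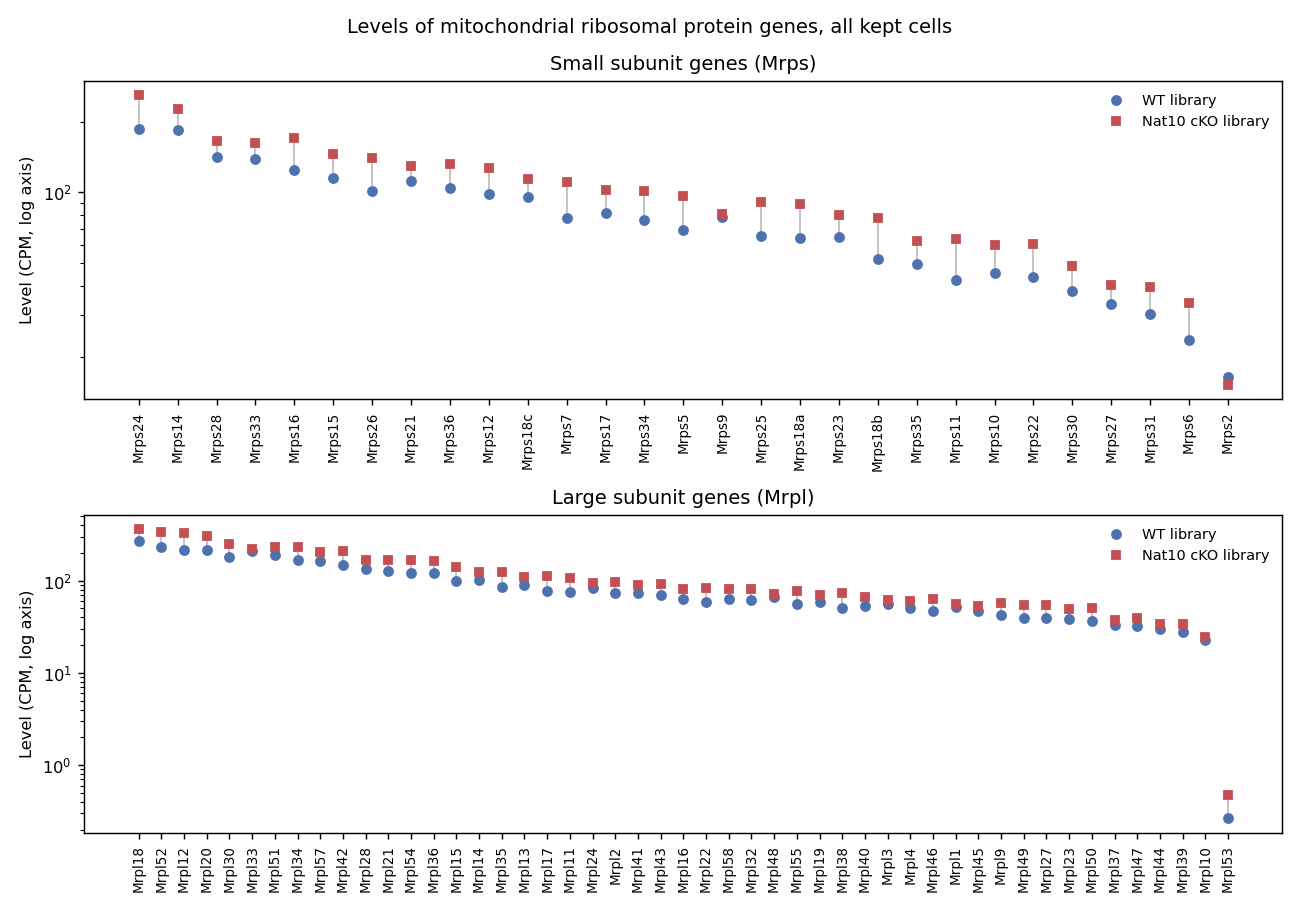
Level of each mitochondrial ribosomal protein gene in all kept cells (CPM, log axis), small subunit genes above and large subunit genes below, ordered by mean level, with WT as circles and cKO as squares. The cKO square lies above the WT circle for 77 of 78 genes, the exception being Mrps2, and Mrpl53 stands far below the rest.

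Transcripts of single members differed widely in level. Mrpl18, a protein of the central protuberance of the large subunit, stood at 267 (WT) and 361 CPM (cKO). Mrpl52, found only in mitochondrial ribosomes, had 232 and 336 CPM, Mrpl12 215 and 324 CPM, and Mrpl20 213 and 305 CPM. The highest small subunit gene was Mrps24, at 187 and 258 CPM. At the other end, Mrpl53 had 0.27 and 0.48 CPM, Mrps2 16.4 and 15.2 CPM, Mrpl10 22.5 and 24.6 CPM, and Mrps6 23.5 and 33.9 CPM. Over all 78 genes the median of the mean level was 80.5 CPM, the quartiles were 53.1 and 128 CPM, and the 10 highest genes held 30.6% of the mean summed level. Members of the same particle thus spread over a wide range of transcript levels.

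Within the small subunit, the highest ratios belonged to Mrps11, Mrps18b and Mrps6. Mrps11, whose bacterial counterpart sits on the platform of the subunit, had 42.3 (WT) and 63.6 CPM (cKO), a log2 ratio of 0.59 (0.55 to 0.62). Mrps18b had 52.4 and 77.5 CPM, a ratio of 0.57 (0.53 to 0.60). Its paralogs, derived from the same bacterial protein, had ratios of 0.48 (Mrps18a, 64.0 and 89.3 CPM) and 0.25 (Mrps18c, 95.4 and 114 CPM). Among proteins that line the path of the messenger RNA, Mrps12 had a ratio of 0.37 (98.4 and 127 CPM), Mrps5 0.49 (69.0 and 97.0 CPM) and Mrps7 0.52 (77.5 and 111 CPM). Mrps36, which is now known as a part of the 2-oxoglutarate dehydrogenase complex rather than of the ribosome, had a ratio of 0.34 (104 and 132 CPM), near the median of the ribosomal members.

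A few small subunit genes stood apart at the low end. Mrps2, whose bacterial counterpart sits between the body and the head of the subunit, was the only member with a lower level in the cKO library, at a log2 ratio of −0.11 (−0.17 to −0.04). Mrps9, a protein of the subunit's head, had 79.0 (WT) and 81.3 CPM (cKO), a ratio of 0.042 (0.014 to 0.070). That ratio turned to −0.017 when every cell weighed alike, to −0.019 with the WT mix of clusters and to −0.0059 after cells were thinned to 2000 UMIs. Mrps28 had 142 and 165 CPM, a ratio of 0.21. Mrps9 and Mrps2 lay near 0 or below in most classes too: Mrps9 was above 0 in 4 of 10 classes, and Mrps2 in 2 of the 8 in which it was tested.

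Of the large subunit genes, Mrpl12 had the highest ratio among those with more than a few UMIs. Mrpl12 forms the flexible stalk that recruits translation factors, and it also binds the mitochondrial RNA polymerase. Its log2 ratio was 0.59 (0.58 to 0.61), and it lay above 0 in all 10 classes, from 0.23 in stromal and endothelial-like to 0.75 in HSC/MPP-like cells. Mrpl10, which anchors Mrpl12 in the stalk, had a ratio of 0.13, and Mrpl11 at the stalk base had 0.48 (75.8 and 106 CPM). Genes at the same site of the ribosome thus had unlike ratios. Mrpl38, of the central protuberance, had 0.54 (50.5 and 73.4 CPM), as had Mrpl52. Mrpl53 reached 0.85 (0.42 to 1.30) on only 70 WT and 122 cKO UMIs.

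Low ratios in the large subunit came from Mrpl33 at 0.053 (0.036 to 0.070), Mrpl48 at 0.12 and Mrpl1, the counterpart of the bacterial stalk protein at the exit site, at 0.13. Mrpl45, which holds the ribosome at the inner membrane, had 46.9 and 53.5 CPM, a ratio of 0.19. Mrpl58, a peptidyl-tRNA hydrolase that became a ribosomal protein, had 62.9 and 80.1 CPM, a ratio of 0.35. Mrpl33 was higher in the cKO library in each of the 10 classes, by 0.012 to 0.44, while its ratio over all kept cells was 0.053. With the WT mix of clusters it was 0.20. Reads of Mrpl23, Mrpl27, Mrpl48 and Mrps36 are uncertain where near-identical pseudogenes could take them; Mrpl23-ps1 held 5246 UMIs, Mrps36-ps1 232 and the other pseudogenes of these genes at most 145.

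Genes listed as having a bacterial counterpart and the remaining members had close medians. The list holds Mrps18c for its bacterial protein, so its paralogs Mrps18a and Mrps18b count among the others. In the small subunit, the 16 listed genes had a median log2 ratio of 0.36 and the other 13 a median of 0.38. In the large subunit, the medians were 0.39 for 30 genes and 0.35 for 19. Of the listed members, 10 of 16 small and 21 of 30 large subunit genes passed 0.3, and of the others 11 of 13 and 15 of 19.

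Gene span moved with the ratio. Members span a median of 7.90 kb and all genes tested a median of 16.4 kb, for 20600 of 21476 genes found by identifier in GENCODE vM21. Other genes had medians of −0.05 under 3 kb, −0.03 from 3 to 10 kb, −0.06 from 10 to 30 kb, −0.16 from 30 to 100 kb and −0.23 above. Members in the same bins had medians of 0.45 (8 genes), 0.38 (45), 0.39 (17) and 0.13 (7), and Mrps28, the single member above 100 kb, had 0.21. Mrps9, Mrpl33, Mrpl48 and Mrpl1, all with low ratios, span 54.5, 67.5, 62.6 and 57.2 kb. The other members from 30 to 100 kb had higher ratios: Mrps6 0.52 (54.0 kb), Mrps35 0.32 (31.2 kb) and Mrps27 0.27 (70.8 kb). Mrps2, the member with the lowest ratio, spans only 3.11 kb. In each bin members lay above the other genes, and the part of span in the ratios was not tested.

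Promoters of members at both ends of these ratios, and of those with their own lineage pattern below, are printed so that the letters can be read beside the values. They are RefSeq sequences of build GRCm38.p6, 5′ to 3′ on the strand of the gene, from 110 bases before the start (position 0) to 9 after it. Capitals mark matches to the motif of NRF1 (GCGC, any 2 bases, GCGC), of ETS factors such as GABP (CCGGAAG) or of YY1 (the reverse complement of the capitals in Mrps11), factors known to bind promoters of genes for mitochondrial proteins; the E-box CACGTG had no match in them. Mrpl12 lies at chr11:120484527-120484646, Mrps11 at chr7:78783021-78783140, Mrps9 at chr1:42851123-42851242, Mrps2 at chr2:28467956-28468075, Mrpl33 at chr5:31613841-31613960, Mrpl52 at chr14:54426799-54426918 and Mrps6 at chr16:92058226-92058345, all on the plus strand.
Mrpl12: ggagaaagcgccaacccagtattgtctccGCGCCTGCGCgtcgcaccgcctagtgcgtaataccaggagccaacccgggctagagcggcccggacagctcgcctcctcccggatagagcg
Mrps11: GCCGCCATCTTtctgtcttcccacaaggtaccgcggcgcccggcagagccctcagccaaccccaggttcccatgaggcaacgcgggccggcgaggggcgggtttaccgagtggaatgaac
Mrps9: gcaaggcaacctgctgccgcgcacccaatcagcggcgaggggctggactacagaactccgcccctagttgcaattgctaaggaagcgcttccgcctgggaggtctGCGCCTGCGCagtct
Mrps2: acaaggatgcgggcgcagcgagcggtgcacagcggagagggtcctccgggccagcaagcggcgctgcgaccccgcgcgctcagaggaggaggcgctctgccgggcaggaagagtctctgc
Mrpl33: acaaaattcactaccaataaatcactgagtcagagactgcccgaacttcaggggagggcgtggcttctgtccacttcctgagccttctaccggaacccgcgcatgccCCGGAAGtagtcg
Mrpl52: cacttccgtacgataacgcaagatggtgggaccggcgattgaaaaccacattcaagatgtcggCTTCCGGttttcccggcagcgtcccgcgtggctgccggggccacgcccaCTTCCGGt
Mrps6: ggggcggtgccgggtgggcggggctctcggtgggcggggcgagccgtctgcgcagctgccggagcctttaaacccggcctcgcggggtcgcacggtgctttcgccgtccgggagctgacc

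Mrpl12, with a ratio of 0.59, and Mrps9, with 0.042, both hold the NRF1 letters, at −81 to −72 and at −5 to 4. Mrps11 holds the YY1 letters on the opposite strand, Mrpl33 the ETS letters across its start, and Mrpl52 the ETS letters at both −47 to −41 and 2 to 8. Mrps2 and Mrps6 hold none of these motifs in the stretch shown. A promoter of 300 bases, from 250 before to 50 after the start, was found for 69 of the 78 members (75 promoters). Of these, 34.7% held the ETS motif on either strand, against 14.9% of promoters of genes with at least 50 UMIs and 8.86% of all promoters. The NRF1 motif, which reads the same on both strands, stood in 18.7% against 10.8% and 6.23%; by subunit it was in 11.1% of 27 small subunit promoters, close to the 10.8%, and in 22.9% of 48 large subunit promoters. The ETS motif was in 40.7% of the small and 31.2% of the large subunit promoters, and the YY1 motif in 6.67% against 1.19% and 0.633%. The E-box was in 9.33% against 9.27% and 7.15%. Median G and C content was 58.7% in member promoters and 59.3% in those of genes with at least 50 UMIs. A match describes letters only.

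Across lineages, the same genes followed a common order. Erythroid progenitor-like cells had the highest summed level, 8020 (WT) and 9758 CPM (cKO). Progenitor-like cells of granulocytes and monocytes (GMP-like) followed with 7438 and 9363 CPM, and monocyte-like cells with 6628 and 8030 CPM. The monocyte-like class joins a cluster led by Irf8 and Ms4a6c (205 WT and 363 cKO cells, 6376 and 7848 CPM) to a cluster led by Ly6a2 and Lyz2 (922 and 253 cells, 6670 and 8259 CPM). A finer clustering named a cluster led by Siglech and Irf8 (296 WT and 338 cKO cells) plasmacytoid dendritic-like. How many cells it shares with the monocyte-like class is not given. Erythroblast-like cells, which are later erythroid cells, had 6251 and 7586 CPM, and megakaryocyte-like cells 5442 and 7735 CPM. HSC/MPP-like cells, which take in haematopoietic stem cells and multipotent progenitors as a single cluster led by Dntt, Mecom, Adgrl4, Hlf and Flt3, stood lower at 4757 and 6535 CPM.

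Conventional dendritic-like (cDC-like) cells followed with 4352 and 5506 CPM, basophil and mast-like cells with 4098 and 5443 CPM. Stromal and endothelial-like cells had 2835 and 2946 CPM, and T/NK-like cells 2534 and 3610 CPM. The T/NK-like class was a single cluster with Ccl5, Il2rb and Xcl1 among its leading genes. Clusters with Gata3, Il2ra and Il7r among their leading genes stayed unnamed and are not part of it. The order was the same in both libraries except for 2 swaps of neighbours: megakaryocyte-like cells stood above erythroblast-like cells, and T/NK-like above stromal and endothelial-like cells, in the cKO library alone. The Poisson intervals of neighbours did not overlap in either library, apart from cDC-like and basophil and mast-like cells of the cKO library (5435 to 5578 and 5380 to 5506 CPM). These intervals hold no spread between animals.

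**Figure D2:**
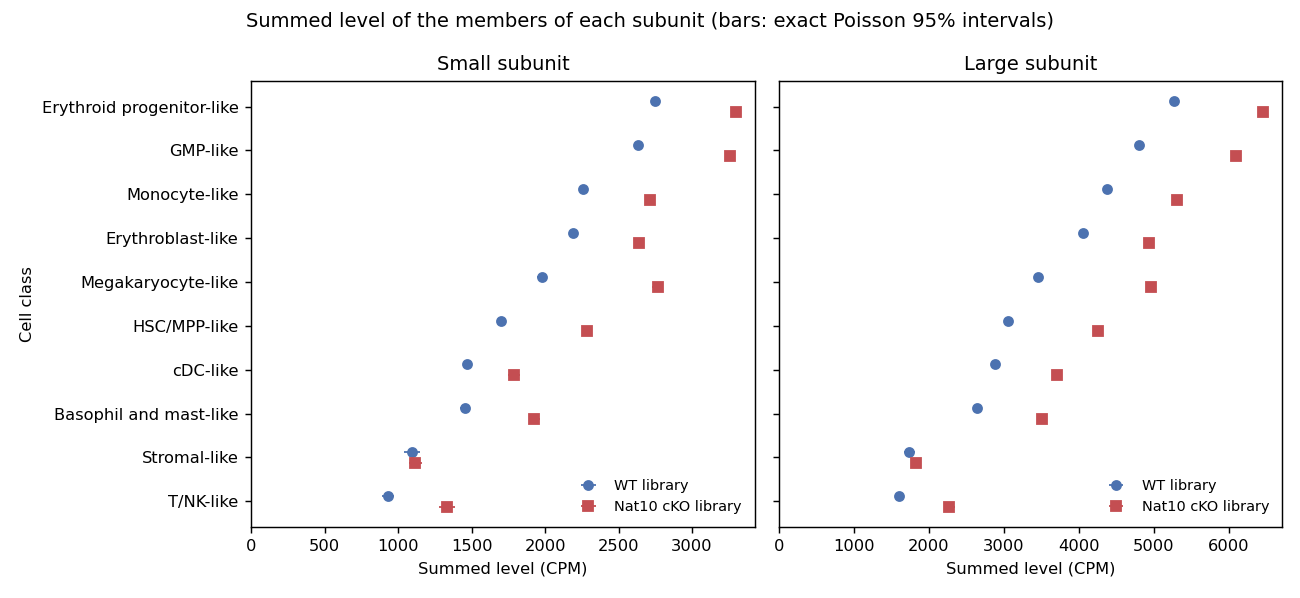
Summed level of small subunit genes (left) and large subunit genes (right) in each class (CPM, linear axis from 0), WT as circles and cKO as squares, with exact Poisson 95% intervals that are mostly narrower than the symbols. The circles follow the same order of classes in both panels, while among the squares megakaryocyte-like and monocyte-like cells, and basophil and mast-like and cDC-like cells, change places between the panels; the squares lie to the right of the circles in every class, least in stromal and endothelial-like cells.

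Small and large subunit genes kept a nearly fixed proportion over lineages. The small subunit held 34.7% of member UMIs in the WT library (34.6 to 34.8%) and 34.2% in the cKO library (34.1 to 34.2%). Over the classes its share ran from 33.8% in cDC-like to 38.5% in stromal and endothelial-like cells of the WT library, and from 32.5% to 37.8% in the same classes of the cKO library. Meanwhile the summed level varied by a larger factor, from 2534 to 8020 CPM in the WT library alone. Over the 20 pairs of class and library, log2 levels of the subunits had a Pearson correlation of 0.993, given as a description because classes share their library and depth. In 9 of 10 classes the cKO library had the lower share, with intervals apart in 4 of them: erythroid progenitor-like, GMP-like, HSC/MPP-like and cDC-like cells. Those differences were small, from 34.2% to 33.8% in erythroid progenitor-like and from 33.8% to 32.5% in cDC-like cells. Known structures place the products of Mrps18a and Mrps30 in the large subunit; counted so, and without Mrps36, the shares were 32.1% and 31.6%.

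Erythroid progenitor-like cells exceeded HSC/MPP-like cells for most members in both libraries. In the WT library 65 of 77 members tested had a log2 ratio of at least 0.3 between these classes, against 32.8% of genes, with a median of 0.66 beside −0.08 for all genes tested. In the cKO library it was 62 of 78, against 33.3% of genes, with a median of 0.48. Passing in both libraries were 61 members, 25 small and 36 large subunit genes, and no member was lower by 0.3 in both (42% of genes were lower in the WT library, 38.6% in the other). The shares of all genes higher or lower in both libraries are not given. Of the 2659 WT and 3816 cKO erythroid progenitor-like cells, 1366 and 2052 lay in 3 clusters with no marker of the class among their 10 leading genes. Among these, the cluster led by Pdzph1 and Slc22a3 had 5049 (WT) and 6520 CPM (cKO) of members, near the level of HSC/MPP-like cells. A finer clustering named a cluster led by the same genes HSC/MPP-like (257 WT and 191 cKO cells). It named a cluster led by Parm1 and Slc22a3 erythroid progenitor-like (189 WT and 182 cKO cells). In another of the 3 clusters, with 393 WT and 860 cKO cells, the median cell had 3176 (WT) and 28939 UMIs (cKO). Without these 3 clusters 65 (WT) and 57 (cKO) of 77 members passed. The shares of all genes above hold for the whole classes, so these counts have none beside them. Over the whole classes, the sums of the WT library differed by 0.75 (0.74 to 0.76) and those of the cKO library by 0.58 (0.57 to 0.59).

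Against GMP-like cells, erythroid progenitor-like cells showed no such shift. In the WT library 23 of 77 members were higher by at least 0.3, against 40.8% of genes, and 8 were lower, against 32.5%. The cKO library gave 15 of 78 members higher, against 42.2%, and 7 lower, against 30.9%. Higher in both were 13 members and lower in both 6, which were Mrpl33, Mrpl44, Mrpl43, Mrps33, Mrpl19 and Mrpl24. For these counts, too, the shares of all genes in both libraries are not given. Mrpl44, an RNase III-like protein of the large subunit, had 28.6 CPM in erythroid progenitor-like and 51.5 CPM in GMP-like cells of the WT library, and 32.5 and 54.0 CPM in the cKO library. Mrps36 was higher in erythroid progenitor-like cells, at 133 against 79.4 CPM (WT) and 155 against 95.8 CPM (cKO). The largest contrasts, in opposite directions, were those of Mrpl52 and Mrpl33.

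Mrpl52 was an erythroid-high member. Erythroid progenitor-like cells had 408 (WT) and 484 CPM (cKO), and erythroblast-like cells 240 and 296 CPM. GMP-like cells had only 82.4 and 108 CPM, the lowest of the 10 classes in each library. In the remaining classes its level lay between 90.5 and 174 CPM (WT) and between 115 and 182 CPM (cKO). The log2 ratio of erythroid progenitor-like over GMP-like cells was 2.31 (2.26 to 2.35) for WT and 2.16 (2.11 to 2.20) for cKO.

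The pattern of Mrpl33, a small protein of the large subunit, was nearly the reverse. Monocyte-like cells had 383 (WT) and 414 CPM (cKO), GMP-like cells 319 and 363 CPM, and cDC-like cells 268 and 338 CPM. Erythroid progenitor-like cells had 141 and 165 CPM and erythroblast-like cells 135 and 160 CPM, below HSC/MPP-like cells at 163 and 216 CPM. Stromal and endothelial-like cells had the lowest level, 65.4 and 66.1 CPM, next to T/NK-like cells with 66.4 and 90.2 CPM. Between erythroid progenitor-like and GMP-like cells its log2 ratio was −1.18 (WT) and −1.14 (cKO).

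Mrps6, a platform protein of the small subunit, departed most from the other members. Its highest levels were in stromal and endothelial-like cells, 45.9 (WT) and 63.3 CPM (cKO), where the summed members were low. The lowest levels were in erythroblast-like cells, 10.6 and 14.8 CPM, and in basophil and mast-like cells, 10.3 and 17.3 CPM. Stromal and endothelial-like values rest on 61 and 138 UMIs. Of these, 51 and 108 came from the cluster led by Pdzrn4 and Csmd1 (73.5 and 73.9 CPM). That cluster had no marker of the class among its 10 leading genes. Its Col1a1-led cluster had 19.6 and 49.7 CPM (8 and 22 UMIs) and its Fabp4-led cluster 8.78 and 29.2 CPM (2 and 8 UMIs). HSC/MPP-like cells had 26.5 and 37.8 CPM. Mrps36 was highest in erythroblast-like cells, with 168 and 199 CPM, and so was Mrpl28, with 170 and 197 CPM.

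**Figure D3:**
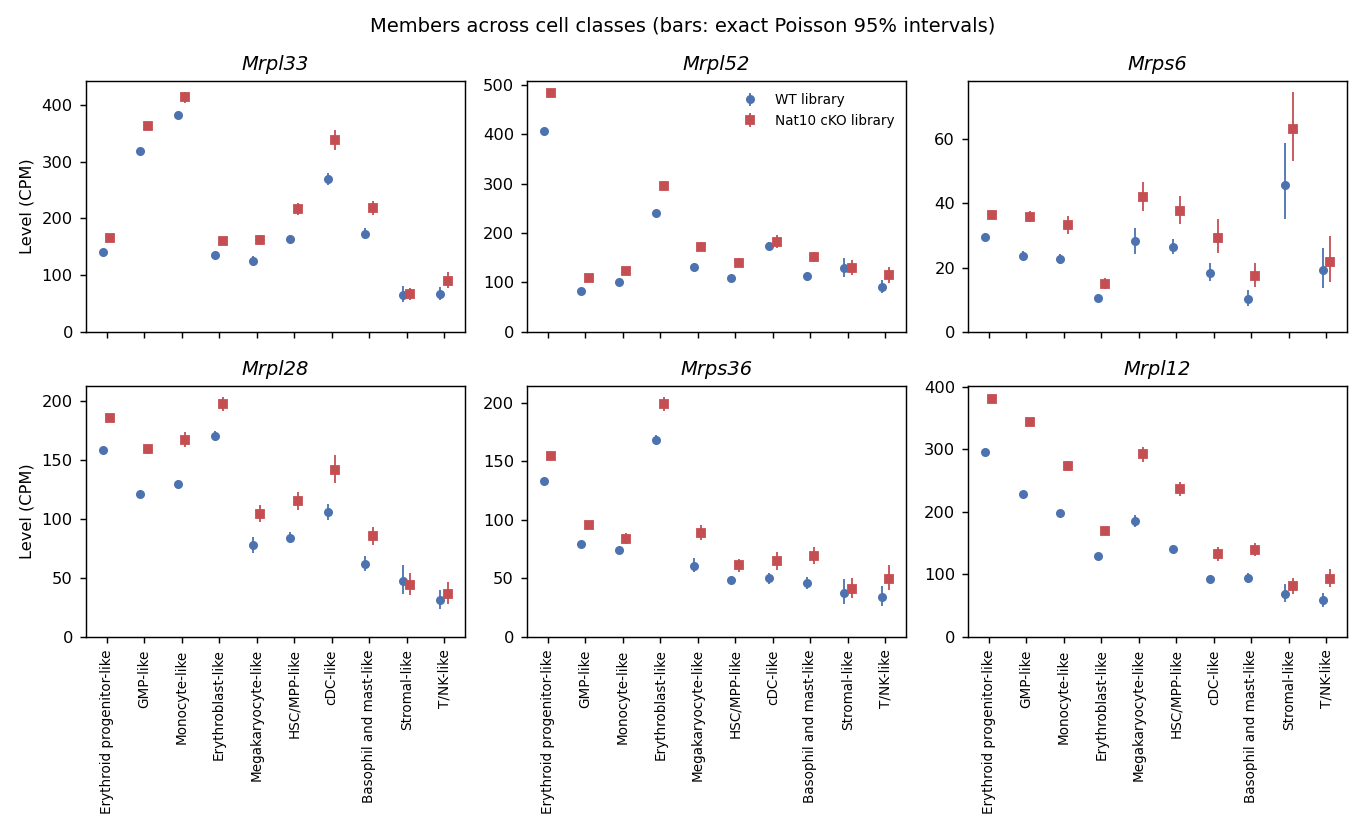
Levels of 6 members in the 10 classes (CPM, linear axes from 0, classes ordered by summed level in the WT library), WT as circles and cKO as squares, with exact Poisson 95% intervals. Mrpl12 broadly follows the common order, Mrpl52 peaks in erythroid progenitor-like, Mrpl33 in monocyte-like and Mrps6 in stromal and endothelial-like cells, alike in both libraries.

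Over the 66 members with at least 20 UMIs in every class and library, the range from the highest to the lowest class had a median of 1.79 on the log2 scale, taking the narrower of both libraries. Small subunit genes had a median of 1.67 (26 genes) and large subunit genes 1.90 (40 genes). The widest ranges were those of Mrpl33 (2.54), Mrpl28 (2.42), Mrps18b (2.34) and Mrps36 (2.28). Erythroid progenitor-like cells were the highest class for 32 members in either library, GMP-like cells for 21 and 24, and erythroblast-like cells for 8 and 6. The highest class was the same in both libraries for 58 of 66 members. Taken as shares of the summed members, the median range shrank to 0.70, with 3.26 for Mrps6, 2.10 for Mrpl52 and 1.81 for Mrpl33.

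Genes with the most similar pattern were sought over the same 20 pairs of class and library, among 6275 genes, by the Pearson correlation of log2 CPM with the summed members. Pfdn6, a subunit of the prefoldin chaperone, had 0.994. Next came Uqcr10 of respiratory complex III at 0.992, Psma5 of the proteasome at 0.991, and Mdh2 of the citric acid cycle at 0.988. Ndufa12, Ndufs7, Lsm7, Ak6, Atp5g1 and Cyc1 had 0.987 to 0.985. Members themselves, each of which is counted in the summed level, had a median of 0.951, with Mrps6 lowest at 0.028 and Mrpl52 at 0.45. The points share libraries and depths, so these values describe the 2 libraries only.

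Between genotypes, members were higher in the cKO library in 9 of the 10 classes with medians from 0.28 to 0.54. Counts at a log2 ratio of at least 0.3 follow, each beside the share of all genes tested in that class. Erythroid progenitor-like cells had 34 of 78 members (8.73% of genes; median 0.28), GMP-like cells 45 of 77 (10.8%; 0.34) and erythroblast-like cells 35 of 77 (11.3%; 0.28). Monocyte-like cells had 35 of 77 (12.1%; 0.28) and cDC-like cells 46 of 77 (14.7%; 0.34). The counts were larger in HSC/MPP-like cells, with 62 of 77 (14.7%; 0.44), and in basophil and mast-like cells, with 58 of 77 (15.9%; 0.41). Megakaryocyte-like cells had 68 of 77 (20.9%; 0.54) and T/NK-like cells 54 of 73 (27% of genes; 0.53).

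Some of these counts moved with the processing. In erythroid progenitor-like cells, TMM and median-of-ratios scaling each gave 66 members, the WT mix of clusters 18 and equal weight for every cell 53. TMM adds 0.13 and median-of-ratios scaling 0.12 to the ratio of every gene there, members or not. The shares of all genes given above hold for the main setting only, so these counts have no such share beside them. In erythroblast-like cells the WT mix of clusters gave 20. In cDC-like cells a finer clustering left 8 of 43 members tested, with medians of −0.10 and −0.12 for the subunits. The direction there thus depends on which clusters form the class. Those values rest on a cluster of 54 WT and 7 cKO cells and a cluster of 12 WT and 18 cKO cells, below the minimum of 100. The former was split from a cluster whose other parts were named monocyte-like. Over clusters with at least 30 cells in both libraries, named or not, the summed level was higher in the cKO library in 31 of 33.

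**Figure D4:**
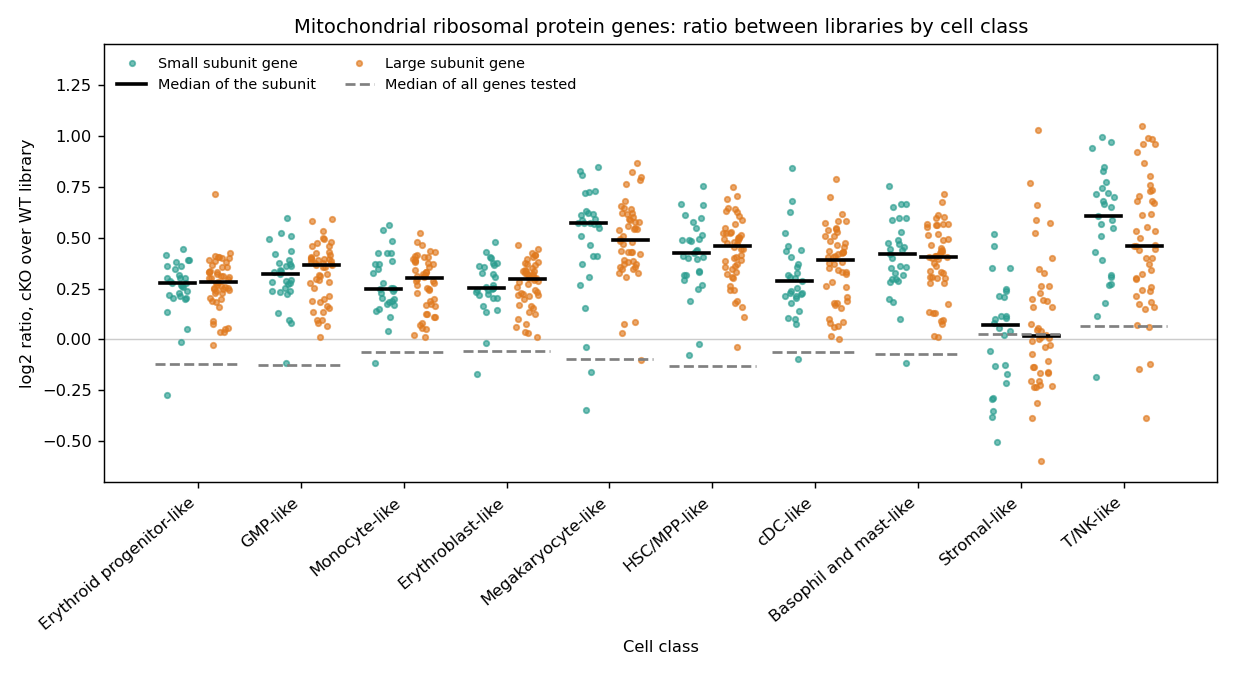
log2 ratio of cKO over WT for each member tested in each class, small and large subunit genes as separate points, with black bars at the subunit medians and dashed lines at the median of all genes tested. Most points lie above 0 and above the dashed line in 9 classes, while in stromal and endothelial-like cells they scatter around it.

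HSC/MPP-like cells, the class nearest to the study's question, had 4757 (WT) and 6535 CPM (cKO) of members, with a summed log2 ratio of 0.46 (0.44 to 0.47). Mrpl12 had 141 (WT) and 236 CPM (cKO), a ratio of 0.75 (0.66 to 0.83). Mrps18b had 31.2 and 52.6 CPM, also 0.75 (0.56 to 0.94). Mrpl55, Mrpl42, Mrps24 and Mrps7 had ratios of 0.70, 0.69, 0.66 and 0.66. Lowest were Mrps9 at −0.077 (−0.22 to 0.061), Mrpl1 at −0.035 and Mrps2 at −0.022, with intervals that hold 0. Genes of the G2/M phase were higher as well, 19 of 20 above 0 (37% of all genes there) with a median of 0.34, while S phase genes had 15 of 20 above 0 and a median of 0.093; the part of cycling cells in the ratios was not tested. Cytosolic ribosomal protein genes were higher there too, with 85 of 85 tested above 0 and 53 past 0.3 (14.7% of all genes), at a median of 0.35. Other genes under 3 kb had a median of 0.070 there and those above 100 kb −0.34.

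After each cell was thinned to 2000 UMIs, WT cells of the HSC/MPP-like class held a mean of 8.99 member UMIs (720 cells) and cKO cells 12.3 (305 cells). Erythroid progenitor-like cells held 14.0 and 17.7, GMP-like cells 14.4 and 18.4 and stromal and endothelial-like cells 5.15 and 5.84. In all kept cells the means were 11.6 and 15.3. Thinning left out 2293 WT and 1154 cKO cells with fewer UMIs. Unthinned medians in all kept cells were 85 and 145 member UMIs.

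Erythroid progenitor-like cells had the highest levels but lower ratios. Their sum had a log2 ratio of 0.28 (0.28 to 0.29), with Mrps11 at 0.45, Mrpl43 at 0.43, Mrps25 and Mrpl22 at 0.41. Mrps2 was lowest at −0.27 (−0.36 to −0.18), from 20.2 to 16.7 CPM, followed by Mrpl3 at −0.026 and Mrps9 at −0.012. S phase genes had 5 of 20 above 0 there (34.4% of all genes) and G2/M genes 14 of 20, with medians of −0.079 and 0.050. A difference in ratio between this class and HSC/MPP-like cells was not tested.

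In stromal and endothelial-like cells the members did not shift together. Only 13 of 70 members tested passed 0.3, against 21.6% of genes there, and 6 had −0.3 or lower, against 17.9%. Their sum had a ratio of 0.055, with an interval from −0.0029 to 0.11. Ratios ran from 1.03 for Mrpl55 (17 and 58 UMIs) to −0.60 for Mrpl1 (48 and 52 UMIs). Above 0 were 41 of the 70 members, against 52.5% of genes there. Counting intervals held 0 for 66 of the 70, lay above 0 for 4 and below 0 for none. Of the 34 members that were not higher in every class tested, 26 were lower in this class alone, none of them with an interval below 0. The class held 144 WT and 334 cKO cells, and its cell cycle genes were lower in the cKO library, 0 of 18 S phase and 0 of 16 G2/M genes tested having a ratio above 0 (52.5% of all genes). The count past 0.3 was 39 of 76 with doublets kept and 39 of 72 with equal weight for every cell, and was 7 of 74 under the finer clustering, so no direction is given for it.

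At the extremes of the other classes, Mrps6 had the highest ratio in GMP-like (0.60), erythroblast-like (0.48), monocyte-like (0.56) and basophil and mast-like cells (0.75). Mrpl43 led in megakaryocyte-like cells at 0.86 (48.5 and 88.3 CPM), Mrps11 in cDC-like cells at 0.84 (19.5 and 34.9 CPM) and Mrpl55 in T/NK-like cells at 1.05 (34 and 61 UMIs). Lowest were Mrps2 in GMP-like, erythroblast-like and monocyte-like cells (−0.11, −0.17 and −0.12). Mrps9 was lowest in basophil and mast-like (−0.11), cDC-like (−0.10) and megakaryocyte-like cells (−0.34, −0.50 to −0.19), and Mrpl3 in T/NK-like cells (−0.38, on 79 and 52 UMIs). Counted over classes, 44 of 78 members, 15 small and 29 large subunit genes, were above 0 wherever they were tested. Of the 68 members tested in all 10 classes, 37 were above 0 in each, against 10.3% of the 6359 genes tested in all of them.

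The partners of the mitochondrial ribosome were unlike one another. The counts below, in all kept cells, stand beside 38.7% of all genes tested above 0, 14.8% past 0.3 and a median of −0.11. All 5 mitochondrial ribosomal proteins with other symbols were above 0, with a median of 0.41. Gadd45gip1, a large subunit protein, had 138 (WT) and 203 CPM (cKO) (0.56), and Chchd1 and Aurkaip1 of the small subunit had 0.41 each. Dap3, a GTP-binding small subunit protein, had 0.30, and Ptcd3, an RNA-binding one, had only 0.063, with −0.14 in erythroid progenitor-like cells. Of 24 factors that assemble the ribosome or modify its rRNA, 17 were above 0 and 7 passed 0.3 (median 0.17). Noa1, a GTPase of assembly, had 31.5 and 46.5 CPM (0.56), and Mrm3, a methyltransferase of the 16S rRNA, 15.6 and 22.7 CPM (0.54), while Mettl15, which methylates the 12S rRNA, had 30.6 and 25.8 CPM (−0.25). Of 16 translation factors and mRNA partners, 14 were above 0 and 4 passed 0.3 (median 0.18), led by Tsfm, the exchange factor of the elongation factor Tufm, at 34.0 and 51.3 CPM (0.60). Tufm had 0.30 and Lrpprc, which stabilises mitochondrial mRNA, −0.058.

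Genes for mitochondrial transcription had 8 of 10 above 0 (median 0.17), with Ssbp1 highest at 0.48 and Polg2 lowest at −0.30. Regulators of nuclear genes for mitochondria, the factors whose motifs are given above among them, had 2 of 11 above 0, with a median of −0.14 that lay near the −0.11 of all genes. Nrf1 had 173 and 146 CPM (−0.24), Gabpa 35.8 and 32.4 CPM (−0.14) and Yy1 208 and 188 CPM (−0.14), whereas Myc had 48.0 and 56.8 CPM (0.24). Of the cytosolic ribosomal protein genes, 82 of 88 were above 0 and 23 passed 0.3 (median 0.23). By class, their median was 0.35 in cDC-like cells, above the 0.34 of the members there. In each other class it lay below that of the members.

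In all kept cells the mitochondrial rRNAs had ratios below 0, not far from the median of −0.11 over all genes tested. Mt-Rnr1, the 12S rRNA of the small subunit, had 2242 (WT) and 1977 CPM (cKO), a log2 ratio of −0.18. Mt-Rnr2, the 16S rRNA of the large subunit, had 3868 and 3467 CPM, a ratio of −0.16. In HSC/MPP-like cells the ratios were −0.40 and −0.23, and in GMP-like cells −0.40 for both. These lay further below the median of all genes tested, which was −0.13 in each of these classes. Mt-Rnr1 was lower in 8 of 10 classes and mt-Rnr2 in 7, the exceptions being T/NK-like and stromal and endothelial-like cells for both and erythroblast-like cells (0.049) for mt-Rnr2. Of the 13 mitochondrially encoded proteins, 4 were above 0, against 38.7% of all genes, with a median of −0.16. Their summed level hardly differed, at 10601 (WT) and 10518 CPM (cKO); mt-Nd3 was highest at 0.24 and mt-Atp8 lowest at −0.55. Capture by 3′ tags need not be alike for transcripts with short or no poly(A) tails, and barcodes with over 10% mitochondrial UMIs had been removed.

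**Figure D5:**
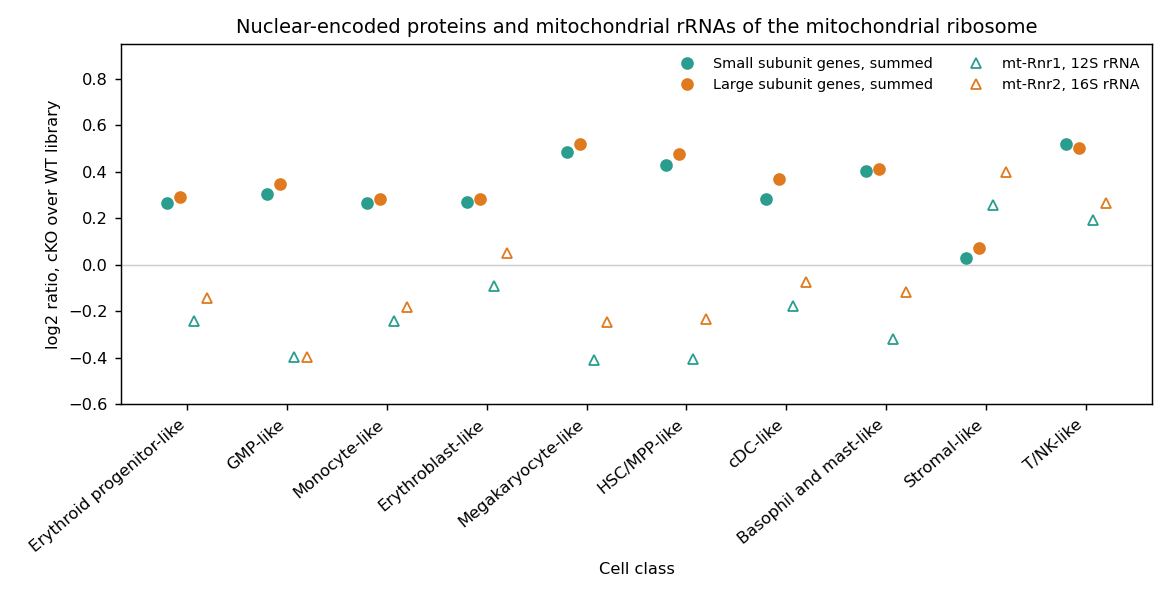
log2 ratio of cKO over WT in each class for the summed small and large subunit genes (filled circles) and for the mitochondrial rRNAs (open triangles). Circles lie above triangles in 9 classes, and the order is reversed in stromal and endothelial-like cells.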

How the data were processed

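The deposited count values are UMIs per gene and barcode, 1 matrix for each library, checked to be whole numbers. Per the submitters' processing notes the authors used the mouse build mm39 and Cell Ranger 7.1.0; whether intronic reads were counted and how cells were called are not given in the sources used here. Groups came from the genotype labels. The genes, gene lists and markers were chosen with earlier results of these data known.

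A barcode needed 1000 UMIs, 500 genes and no more than 10% of its UMIs from mitochondrial genes; 12537 WT and 11239 cKO barcodes passed. Scrublet in scanpy 1.11.5 (expected share 8%) removed 592 (4.72%) and 544 (4.84%) as doublets. Cells of both libraries were clustered together without integration (2000 variable genes, 30 principal components, 15 neighbours, Leiden resolution 1.5). Clusters were named by the class whose markers were most frequent in the first 10 genes by fold, or, where none was there, by whichever class had most of its list detected, as a share (3 erythroid progenitor-like and 1 stromal and endothelial-like cluster among the classes described). A name needed at least 3 markers detected at 2 times the median of the cluster means; ties stayed unnamed. The rules on ties and on that median were set after the clusters were seen. Of 40 clusters 8 stayed unnamed, with 2492 WT and 1524 cKO cells; they count only in all kept cells.

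UMIs were summed per class and library and scaled by total UMIs, and log2 ratios took 0.5 added to each sum. Intervals are exact Poisson (sums), exact binomial (shares) and exact conditional binomial (ratios), computed with scipy 1.17.1. A gene was tested in a class at 50 UMIs over both libraries. With 1 library per genotype no p-value was computed, and the calculation was checked on simulated counts. Named members are the 4 highest and 4 lowest levels and 4 widest ranges per subunit, the 3 highest and 3 lowest ratios per subunit in all kept, HSC/MPP-like and erythroid progenitor-like cells, the extremes of the other classes, and a fixed set of known roles; other members named were chosen after their values were seen. Alternatives covered scaling, doublets, cell filters, weighting, cluster mix, resolution, depth, minimum counts, fold and subunit assignment.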

Additional observations from a re-analysis of the deposited data

Results flagged for a closer look

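Mrps28 and Mrps9 had ratios of opposite sign in megakaryocyte-like cells and another class, with counting intervals that exclude 0 on both sides. Mrps28 had a log2 ratio of −0.16 in megakaryocyte-like cells (141 CPM for WT and 126 CPM for cKO), against 0.25 in HSC/MPP-like cells (112 and 133 CPM), the highest of 6 classes whose interval lay above 0. Mrps9 had −0.34 in megakaryocyte-like cells (101 and 79.4 CPM), against 0.079 in GMP-like cells (77.8 and 82.2 CPM). With 1 library per genotype the difference between the classes was not tested. All 77 members tested in megakaryocyte-like cells had a median ratio of 0.54. Mrps9 and Mrps28 are long genes, of 54.5 and 122 kb. In megakaryocyte-like cells, genes other than members had medians of −0.23 from 30 to 100 kb and −0.44 above 100 kb. The part of span in these ratios was not tested.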

How the results depend on the processing

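No paired analysis was possible because each genotype has 1 library, and leaving out a replicate could not be done for the same reason. Shares of all genes are given for the main setting only, so the counts below describe members without that background. At a fold of 0.5, members past it numbered 12 in all kept cells, 1 in erythroid progenitor-like, 6 in GMP-like, 0 in erythroblast-like, 3 in monocyte-like, 25 in HSC/MPP-like, 21 in basophil and mast-like, 42 in megakaryocyte-like, 16 in cDC-like and 7 in stromal and endothelial-like cells. With the WT mix of clusters the counts at 0.3 were 36 in all kept, 18 in erythroid progenitor-like, 20 in erythroblast-like and 21 in stromal and endothelial-like cells. Erythroid progenitor-like cells gave 66 under TMM and 66 under median-of-ratios scaling, and 53 with equal weight for every cell. Thinning to 2000 UMIs left fewer members tested and gave 34 of 56 in basophil and mast-like, 30 of 51 in cDC-like, 21 of 32 in T/NK-like and 5 of 6 in stromal and endothelial-like cells. A minimum of 200 UMIs gave 13 of 17 in T/NK-like and 1 of 14 in stromal and endothelial-like cells, where the small subunit median was then −0.058. Leiden resolution 2.5 gave 8 in cDC-like cells (medians −0.098 small, −0.12 large), with fewer cells in each library than the minimum of 100. It gave 7 in stromal and endothelial-like cells (−0.050 and −0.11). The latter class gave 39 with doublets kept and 39 with equal weight for every cell, and its large subunit median was −0.0096 under median-of-ratios scaling and −0.035 under a stricter cell filter. Mrps9 in all kept cells was −0.017 with equal weight for every cell, −0.019 with the WT mix and −0.0059 after thinning. The small subunit share was 34.8% (WT) and 34.3% (cKO) with equal weight, 35.2% and 34.3% after thinning, 32.1% and 31.6% with subunits by structure, and 34.4% (cKO) with the WT mix. The causes were not tested, except that thinning and the higher minimum tested fewer genes. The other 134 of 168 values of the main comparisons stayed within 1.5 times the count or within the interval. Leaving unnamed clusters out of all kept cells, chosen after seeing the data, gave 56 of 78. Leaving out the named clusters with no leading marker, chosen likewise, gave 25 of 77 in erythroid progenitor-like and 15 of 46 in stromal and endothelial-like cells. Depth limits T/NK-like and stromal and endothelial-like cells most, with 5153 and 3772 member UMIs in the WT library.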

Other observations

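Members stood highest of all in a cluster that no marker list named. It held 418 WT and 656 cKO cells, the median cell having 2335 UMIs, and was led by Acta1, Sphk1, Mt2, Bex4 and Mrpl52 among others. Its summed member level was 10580 (WT) and 12091 CPM (cKO), above every named class, and Mrpl52 alone stood at 613 and 709 CPM. The small subunit held 32.5% and 32.4% of its member UMIs. An erythroid progenitor-like cluster led by Sox6 and Pkhd1l1 (260 WT and 309 cKO cells) had 3590 and 3487 CPM. It was 1 of the 2 clusters of 33 with a lower summed level in the cKO library.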
